A study of Arabidopsis thaliana with 12 samples.

Results

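Seeds of the Arabidopsis thaliana mutant odr1-2 that had imbibed water were set against seeds of the wild type Col-0 that had imbibed 300 mM mannitol, a sugar alcohol used to impose osmotic stress. The comparison took 6 of the 12 libraries of the study, 3 biological replicates in each of the 2 groups. All seeds, whatever the group, were after-ripened, were kept for 2 days at 4°C and then spent 12 h in water or mannitol. The mutant is represented by 1 allele. Genotype and medium both differ between the groups, so their parts in a difference cannot be told apart from these 6 libraries. The remaining groups, Col-0 in water and odr1-2 in mannitol, are given beside the main values for many of the genes described. ODR1 mRNA was not analysed here.

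A seed that has lost dormancy germinates when gibberellin (GA) outweighs abscisic acid (ABA). ABA keeps the maturation programme of late embryogenesis abundant (LEA) proteins, storage proteins and oil body proteins active, and it restrains endosperm weakening and embryo growth. Low water potential raises ABA in imbibed seeds and holds back germination. ODR1 has been described as a negative regulator of seed dormancy and of ABA synthesis.

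The 6 libraries held between 10060020 and 13693166 gene counts. Tests were run on 18413 of 36795 loci. Levels are counts per 1000000 counts of a library after scaling between libraries (CPM), given for replicates 1, 2 and 3 in that order or as a mean. CPM is not divided by gene length, so levels are compared within a gene and not between genes. A gene is called higher or lower at an adjusted p under 0.05 in edgeR's quasi-likelihood fit, and the direction always refers to odr1-2 in water relative to Col-0 in mannitol. Log2 fold changes carry their standard error, with n = 3 libraries per group. Whole seeds were sampled, and in such bulk RNA fewer cells of a type and less RNA per cell cannot be told apart.

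Of the genes tested 6987 (37.9%) differed, 3599 (19.5%) being higher and 3388 (18.4%) lower. At least 2-fold differences were fewer, 1303 genes in all (7.08%), with 924 higher (5.02%) and 379 lower (2.06%). The 3 libraries of the groups did not overlap for 8324 genes (45.2%). For 10191 genes (55.3%) the 95% interval of the log2 fold change lay within 1.5-fold in either direction. The median log2 fold change over all genes tested was -0.00409. Counts of called genes in a list are to be read beside the shares over all genes, 19.5% higher and 18.4% lower. DOG1, MFT and the storage protein gene CRA1 were not called, 21 of 26 LEA genes were lower, and 18 of 24 cell wall loosening genes and 8 of 11 morning clock genes were higher.

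**Figure D1:**
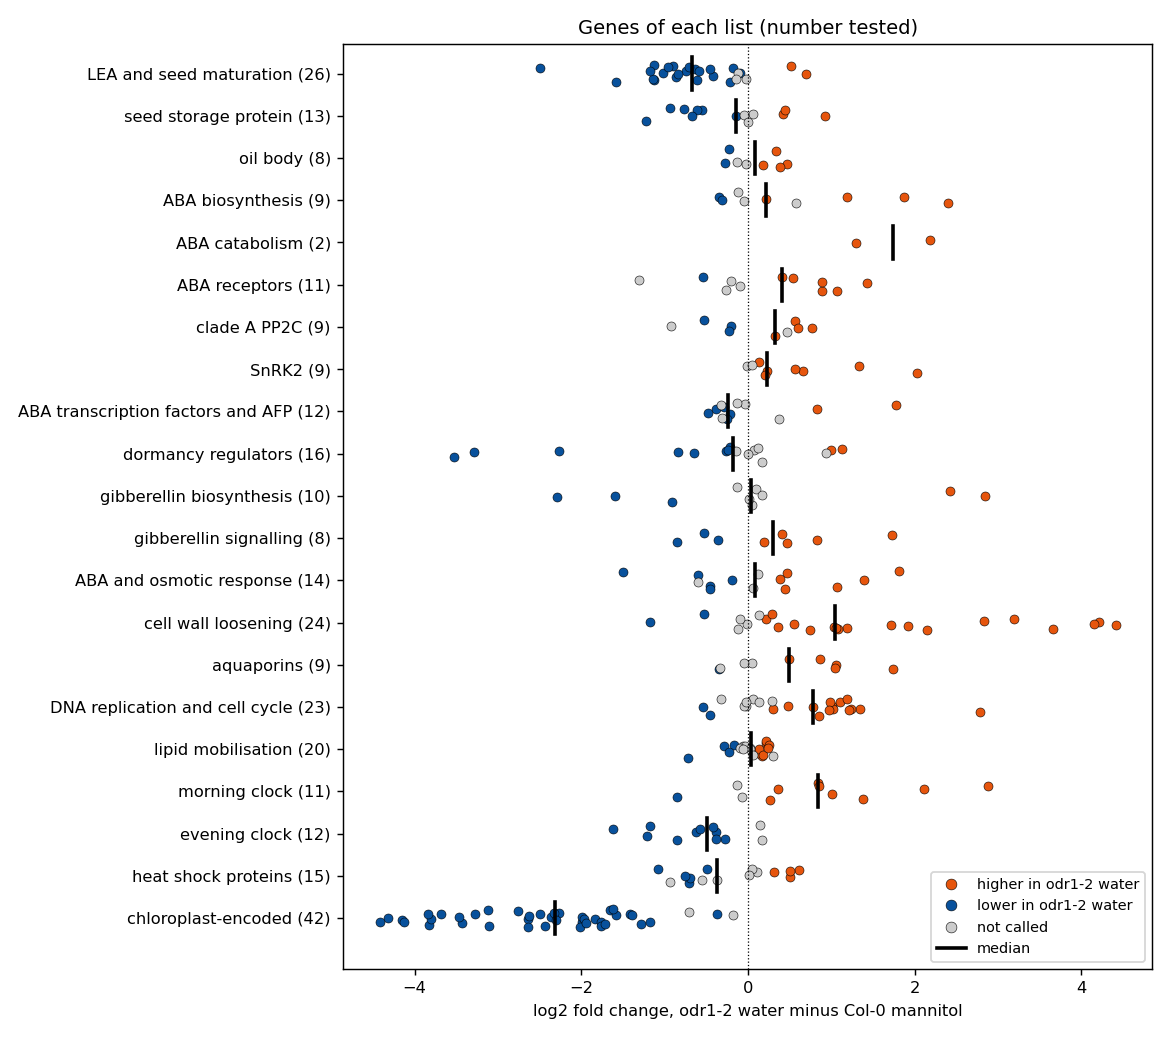
Log2 fold change of each tested gene, odr1-2 in water minus Col-0 in mannitol, for 21 lists (number tested in brackets). Orange points were called higher, blue points lower and grey points were not called, and the black bar is the median of a list. The medians run from -2.31 for the chloroplast-encoded genes to 1.74 for the 2 ABA catabolism genes.

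DOG1 (AT5G45830), a protein that sets the depth of seed dormancy, stood at 11.4, 9.69 and 9.88 CPM in odr1-2 in water and at 7.80, 9.77 and 9.90 CPM in Col-0 in mannitol. The libraries overlapped, and DOG1 was not called (log2 fold change 0.16 ± 0.15, 95% interval -0.13 to 0.45, adjusted p = 0.413). Its mean was 1.29 CPM in Col-0 in water and 35.3 CPM in odr1-2 in mannitol. MFT (AT1G18100), a phosphatidylethanolamine-binding protein that acts in ABA control of germination, followed the same order of groups. It stood at 102, 114 and 103 CPM in odr1-2 in water and at 96.2, 105 and 103 CPM in Col-0 in mannitol (0.07 ± 0.06, interval -0.05 to 0.18), against 37.9 CPM in Col-0 in water and 188 CPM in odr1-2 in mannitol. MFT shares annotated sequence with 2 tested genes, AT1G05383 and AT1G18090, and whether reads were counted by strand is not stated. HUB2 (AT1G55250), which ubiquitinates histone H2B and whose loss reduces dormancy, was also not called (-0.14 ± 0.07), although it was called without odr1-2 water replicate 1 (-0.20).

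Of the 16 dormancy regulators 2 were higher (12.5%) and 8 lower (50%), with a median log2 fold change of -0.18. Over all genes these shares were 19.5% and 18.4%. The largest falls were in genes annotated as encoding delay of germination proteins, relatives of DOG1. AT4G18690 stood at 4.97, 2.79 and 3.99 CPM in odr1-2 in water and at 41.8, 51.1 and 41.4 CPM in Col-0 in mannitol. All 3 mutant libraries lay far below the wild-type libraries, a log2 fold change of -3.53 ± 0.14 or 11.6-fold. AT4G18660 had means of 2.91 and 28.4 CPM (-3.29 ± 0.16) and AT4G18680 was 4.82-fold lower (-2.27 ± 0.11), with 43.5, 52.6 and 48.7 CPM in Col-0 in mannitol. In Col-0 in water the means of AT4G18690, AT4G18660 and AT4G18680 were 14.3, 7.40 and 17.8 CPM, and in odr1-2 in mannitol 8.58, 11.7 and 25.1 CPM. AT4G18650, a locus close in number that is annotated as a transcription factor-like protein and was chosen after its values were seen, was also lower, with 69.9 and 110 CPM (-0.65 ± 0.07). SOM (AT1G03790), a CCCH-type zinc finger protein that represses light-dependent germination and likewise chosen after its values were seen, had 373 CPM in odr1-2 in water and 671 CPM in Col-0 in mannitol (-0.85 ± 0.04).

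**Figure D2:**
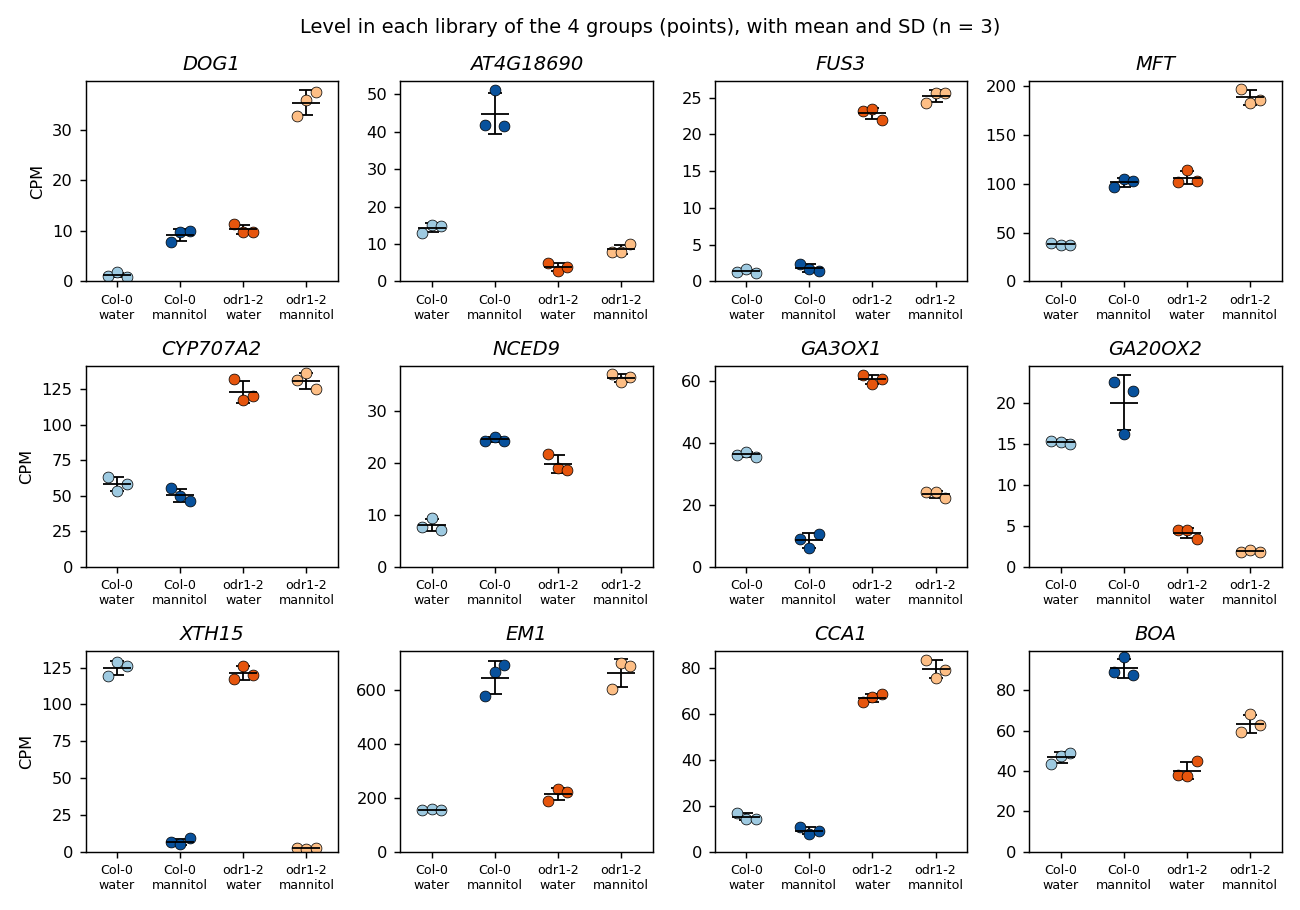
CPM of 12 genes in each of the 12 libraries (points), with the mean (bar) and SD (whiskers) over the 3 libraries of a group. DOG1 and MFT have overlapping libraries in Col-0 mannitol and odr1-2 water. AT4G18690, GA20OX2, EM1, NCED9 and BOA are lower in odr1-2 water, and FUS3, CYP707A2, GA3OX1, XTH15 and CCA1 are higher.

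The ABA pathway was mixed by step. Among 9 tested genes of ABA synthesis 4 were higher (44.4%) and 2 lower (22.2%), with a median log2 fold change of 0.21. Over all genes these shares were 19.5% and 18.4%. The lower count was 1 without odr1-2 water replicate 3 or Col-0 mannitol replicate 1, and 0 by limma-trend on TPM. NCED enzymes cleave carotenoids in the step that limits ABA synthesis. NCED6 (AT3G24220) stood at 10.5, 12.2 and 13.9 CPM in odr1-2 in water and at 3.52, 3.40 and 3.13 CPM in Col-0 in mannitol (1.87 ± 0.20). NCED3 and NCED5 were higher too, at low levels of 4.76 against 0.892 CPM (5.28-fold) and 4.82 against 2.12 CPM (1.18 ± 0.27). NCED9 (AT1G78390) went the other way, with 21.7, 19.1 and 18.6 CPM against 24.4, 25.1 and 24.3 CPM (-0.32 ± 0.11, adjusted p = 0.0123). The NCED9 call was lost without odr1-2 water replicate 3 (-0.27) and by limma-trend on log2 of TPM plus 1 (-0.26). NCED9 was at 8.04 CPM in Col-0 in water and 36.4 CPM in odr1-2 in mannitol. AAO3 and ABA4, which act after and before the NCED step, were not called (-0.12 ± 0.13 and -0.05 ± 0.13).

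Both tested ABA 8'-hydroxylase genes, which inactivate ABA, were higher. CYP707A2 (AT2G29090), the main form in imbibed seeds, stood at 132, 117 and 120 CPM in odr1-2 in water and at 55.3, 49.6 and 46.3 CPM in Col-0 in mannitol, without overlap (1.29 ± 0.07). Its means in the other groups were close to those of the same genotype, 58.2 CPM in Col-0 in water and 131 CPM in odr1-2 in mannitol. CYP707A3 (AT5G45340) had means of 4.92 and 1.07 CPM (2.19 ± 0.31). This gene followed the medium instead, with 4.05 CPM in Col-0 in water and 1.31 CPM in odr1-2 in mannitol.

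ABA perception genes were higher more often than lower. Of 11 tested PYR/PYL receptor genes 6 were higher (54.5%) and 1 lower (9.09%), against 19.5% and 18.4% over all genes. Their median was 0.41, and the lower count was 2 without Col-0 mannitol replicate 2. PYL4 had 52.4 against 28.2 CPM (0.89 ± 0.08) and PYL6 9.36 against 3.48 CPM (1.42 ± 0.19), and both were at their highest in Col-0 in water (68.9 and 16.0 CPM). Of 9 clade A PP2C genes, whose phosphatases hold ABA signalling off, 4 were higher (44.4%) and 3 lower (33.3%), with a median of 0.32. The lower count was 1 without Col-0 mannitol replicate 3 and 1 by limma-trend on TPM. AHG1, which also binds DOG1, had 364 against 240 CPM (0.60 ± 0.05), with 138 CPM in Col-0 in water and 622 CPM in odr1-2 in mannitol. AHG3 had 188 against 128 CPM (0.56 ± 0.05), with 125 and 184 CPM there. Of 9 SnRK2 kinase genes 7 were higher (77.8%) and none lower (median 0.23). The largest SnRK2 difference at a mean of 10 CPM or more was that of SNRK2.6, the kinase OST1, with 12.0, 12.2 and 10.9 CPM against 5.14, 4.88 and 3.91 CPM (1.33 ± 0.17). SNRK2.9, at 1.28 and 0.309 CPM, was called (2.03 ± 0.63), but its libraries overlapped and the call was lost without Col-0 mannitol replicate 2 (1.59).

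The transcription factors of ABA response did not move as one. Of 12 such genes, ABI5-binding proteins included, 2 were higher and 5 lower (median -0.24), the lower count being 3 without odr1-2 water replicate 3. ABI4 (AT2G40220), an AP2-type regulator of ABA and sugar response, stood at 125, 118 and 127 CPM in odr1-2 in water and at 36.2, 34.9 and 37.3 CPM in Col-0 in mannitol (1.77 ± 0.07). Its level was 86.8 CPM in Col-0 in water and 86.6 CPM in odr1-2 in mannitol, between the 2 states compared. ABI5 (AT2G36270), a bZIP factor of growth arrest after germination, was lower by a small margin, with 126 against 146 CPM (-0.22 ± 0.06), and stood at 109 CPM in Col-0 in water and 164 CPM in odr1-2 in mannitol. ABI3 (AT3G24650), a B3 factor of seed maturation, was lower by a like margin, with 567 against 675 CPM (-0.25 ± 0.05), and 564 and 647 CPM in the same remaining groups. AT4G01460, of the bHLH superfamily, is counted with the dormancy regulators and not among these 12 genes. AT4G01460 had means of 8.24 and 8.26 CPM and was not called (0.00 ± 0.18). The call of ABF1 (-0.49 ± 0.18) was lost without odr1-2 water replicate 2 (-0.33) or 3 (-0.51) and without Col-0 mannitol replicate 1 (-0.42) or 2 (-0.46).

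LEA genes were lower in the unstressed mutant. Of 26 tested LEA and seed maturation genes 21 were lower and 2 higher, with a median log2 fold change of -0.67. The lower count ran from 20 to 22 when any 1 library was left out. LEA genes held 1.28% ± 0.0416 of all counts in odr1-2 in water and 1.77% ± 0.107 in Col-0 in mannitol (SD, n = 3), against 0.700% in Col-0 in water and 2.48% in odr1-2 in mannitol. EM6 (AT2G40170), a group 1 LEA protein, stood at 413, 468 and 479 CPM in odr1-2 in water and at 893, 1073 and 1024 CPM in Col-0 in mannitol (-1.14 ± 0.06). EM1 (AT3G51810), of the same group, stood at 189, 233 and 223 CPM against 578, 669 and 697 CPM (-1.59 ± 0.09). EM1 and EM6 in odr1-2 in water were nearer to Col-0 in water, at 156 and 256 CPM, than to Col-0 in mannitol. The dehydrin gene RAB18 (AT5G66400) was lower by less, with 996 against 1365 CPM (-0.45 ± 0.10), and stood at 382 CPM in Col-0 in water and 3301 CPM in odr1-2 in mannitol. ECP63 was not called, with 585 against 593 CPM (interval -0.12 to 0.08).

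RD29B (AT5G52300), a widely used marker of ABA response, was higher. It stood at 247, 267 and 265 CPM in odr1-2 in water and at 194, 200 and 201 CPM in Col-0 in mannitol (0.39 ± 0.05, adjusted p = 8.4e-10), without overlap. Its mean was 62.2 CPM in Col-0 in water and 402 CPM in odr1-2 in mannitol. RD29A (AT5G52310), its neighbour by locus number, was not called, at 6.77 and 6.21 CPM (0.12 ± 0.18). Among the 14 tested genes of the ABA and osmotic response list 6 were higher and 5 lower (median 0.09), the lower count being 3 without odr1-2 water replicate 3. COR47, a dehydrin induced by cold, drought and ABA, had 72.6 against 20.8 CPM (1.80 ± 0.08), with 31.2 CPM in Col-0 in water and 59.3 CPM in odr1-2 in mannitol. RD22, a BURP domain protein induced by drought, had 1.62 CPM against 3.04, 5.84 and 4.60 CPM (-1.50 ± 0.30). Outside that list, GASA2, of the GA-regulated GASA peptides, was lower, with 28.3, 24.7 and 29.4 CPM against 48.1, 50.3 and 51.7 CPM (-0.87 ± 0.08). GASA2 was at 4.80 CPM in Col-0 in water and 150 CPM in odr1-2 in mannitol.

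Of 5 tested genes of the galactinol and raffinose list 2 were higher (40%) and 1 lower (20%), against 19.5% and 18.4% over all genes. Galactinol synthases make the galactosyl donor of raffinose. GOLS2 was lower, with 12.0 against 21.7 CPM (-0.85 ± 0.11), and stood at 2.62 CPM in Col-0 in water and 56.0 CPM in odr1-2 in mannitol. GOLS1 and the stachyose synthase gene STS were not called, with 58.4 against 59.9 CPM (interval -0.17 to 0.10) and 32.9 against 35.3 CPM (interval -0.27 to 0.08). DIN10, of the raffinose synthase family, was higher with 190 against 51.7 CPM (1.88 ± 0.06), and reached 338 CPM in Col-0 in water. SIP2, the other higher member, had 679 against 453 CPM (0.59 ± 0.04) and 545 CPM in Col-0 in water.

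The promoters of 4 of these genes are shown because EM6 and RD29B carry the same element and differed in opposite directions, while AT4G18690 and FUS3 were the members of the dormancy and embryo lists with the largest differences. Each is the 300 bases before the annotated gene start in RefSeq TAIR10.1, written 5′ to 3′ on the strand of the gene. Capitals mark ACGTG (the ABRE core of ABA response), CATGCA (the RY core read by B3 factors), AAAATATCT (the evening element of the clock) or GAANNTTC (the heat shock element) on either strand. A CACGTG holds the ABRE core on both strands. EM6 lies on the minus strand (chr2:16780369-16780668), RD29B on the plus strand (chr5:21236721-21237020), AT4G18690 on the plus strand (chr4:10282462-10282761) and FUS3 on the minus strand (chr3:9856213-9856512).
EM6: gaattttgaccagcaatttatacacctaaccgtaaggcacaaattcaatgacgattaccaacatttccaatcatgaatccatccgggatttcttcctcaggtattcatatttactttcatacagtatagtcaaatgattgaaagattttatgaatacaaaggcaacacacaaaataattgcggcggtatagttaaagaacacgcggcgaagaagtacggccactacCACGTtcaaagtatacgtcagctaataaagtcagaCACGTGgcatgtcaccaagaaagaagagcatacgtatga
RD29B: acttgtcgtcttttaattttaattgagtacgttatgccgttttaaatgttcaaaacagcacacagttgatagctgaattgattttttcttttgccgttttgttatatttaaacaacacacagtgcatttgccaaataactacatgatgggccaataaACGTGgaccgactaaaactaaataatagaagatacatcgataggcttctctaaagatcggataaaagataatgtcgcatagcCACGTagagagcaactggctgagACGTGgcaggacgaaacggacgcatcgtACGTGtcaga
AT4G18690: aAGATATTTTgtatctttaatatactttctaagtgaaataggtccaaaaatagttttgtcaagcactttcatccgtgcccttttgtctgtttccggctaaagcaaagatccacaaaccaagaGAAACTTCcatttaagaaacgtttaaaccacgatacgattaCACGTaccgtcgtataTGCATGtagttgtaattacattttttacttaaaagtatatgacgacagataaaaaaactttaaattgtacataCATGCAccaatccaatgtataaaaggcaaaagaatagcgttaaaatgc
FUS3: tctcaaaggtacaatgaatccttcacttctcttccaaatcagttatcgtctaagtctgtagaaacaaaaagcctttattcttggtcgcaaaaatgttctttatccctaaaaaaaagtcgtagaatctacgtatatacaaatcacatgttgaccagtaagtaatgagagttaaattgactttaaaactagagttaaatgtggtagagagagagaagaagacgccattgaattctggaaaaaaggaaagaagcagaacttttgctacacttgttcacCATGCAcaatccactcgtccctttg

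The window of EM6 held 3 ABRE cores and that of RD29B 4. The window of AT4G18690 held 1 ABRE core, 2 RY cores, 1 evening element and 1 heat shock element, and that of FUS3 held 1 RY core. Over all 18362 tested nuclear genes with such a window 25.2% held an ABRE core, against 28.7% of the 924 genes at least 2-fold higher and 37.9% of the 338 nuclear genes at least 2-fold lower. The RY core was in 8.87% of all, 14.7% of the higher and 10.7% of the lower windows, and the evening element in 2.73%, 2.81% and 5.62%. The heat shock element was in 11.5%, 10.8% and 14.2%, and the telo box AAACCCTA, common in genes of growing cells, in 4.82%, 2.92% and 5.33%. By list, 25 of 26 LEA genes held an ABRE core, 11 of 13 storage protein genes an RY core and 5 of 12 evening clock genes an evening element. The ABRE core was also in 9 of 13 storage protein, 8 of 11 morning clock, 7 of 12 evening clock and 5 of 24 cell wall loosening genes. Both strands were searched, and a match is a description of the sequence.

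Storage protein mRNA was slightly lower in summed share, without overlap (2.24% to 2.27% against 2.39% to 2.56% of counts), and mixed by gene. Storage protein genes held 2.26% ± 0.0154 of counts in odr1-2 in water and 2.49% ± 0.0845 in Col-0 in mannitol, against 0.996% in Col-0 in water and 3.73% in odr1-2 in mannitol. CRA1 (AT5G44120), the 12S globulin cruciferin A, stood at 12558, 12459 and 12642 CPM in odr1-2 in water and at 12917, 11915 and 12942 CPM in Col-0 in mannitol (0.00 ± 0.03, interval -0.07 to 0.06). That gene holds much of the summed share. Of the 13 tested storage genes 3 were higher (23.1%) and 7 lower (53.8%), with a median of -0.14. Over all genes these shares were 19.5% and 18.4%. CRU2, another cruciferin, had 289 against 678 CPM (-1.23 ± 0.04), and the 2S albumin gene SESA2 had 473 against 250 CPM (0.92 ± 0.04). In Col-0 in water CRU2 and SESA2 were at 349 and 107 CPM, and in odr1-2 in mannitol at 553 and 928 CPM. SESA1, of the same albumin family, was not called (-0.05 ± 0.05).

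Oil body genes leaned higher, with 4 of 8 higher (50%), 2 lower (25%) and a median of 0.08. Over all genes these shares were 19.5% and 18.4%. OLEO1, the most studied oleosin that coats oil bodies, stood at 3053, 3090 and 3081 CPM against 2192, 2291 and 2181 CPM (0.47 ± 0.03), with 799.9 CPM in Col-0 in water and 5946 CPM in odr1-2 in mannitol. OLEO2 had 929 against 712 CPM (0.38 ± 0.04). The list held 0.528% of counts in odr1-2 in water and 0.424% in Col-0 in mannitol. Differences in genes of lipid mobilisation were small, none at least 2-fold, with a median of 0.04. They were called often, with 8 of 20 higher (40%) and 4 lower (20%). ICL and MLS, the glyoxylate cycle enzymes that turn oil into sugar, stood at 11008 against 11321 CPM (interval -0.10 to 0.02) and at 4554 against 4756 CPM (interval -0.13 to 0.01). MLS was called without Col-0 mannitol replicate 1 (-0.09). The SDP1 lipase gene was slightly higher (0.25 ± 0.05) and ACX4 of beta-oxidation slightly lower (-0.28 ± 0.05).

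**Figure D3:**
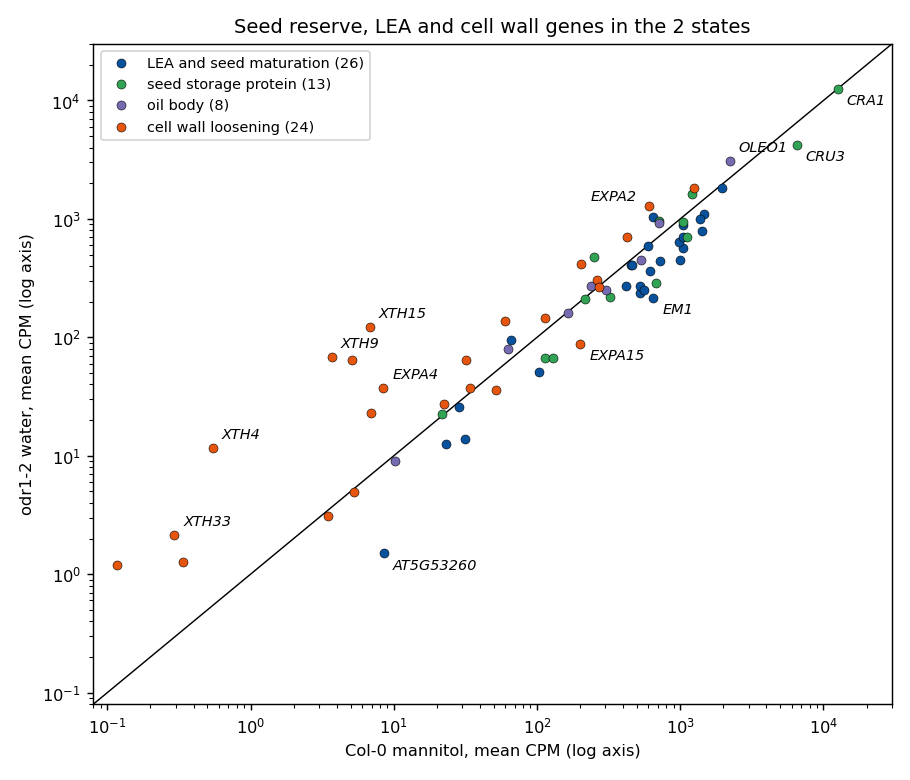
Mean CPM in odr1-2 water (vertical, log axis) against Col-0 mannitol (horizontal, log axis) for the tested LEA, storage, oil body and cell wall loosening genes, with the line of equal levels. CRA1 lies on the line (12553 against 12591 CPM), most LEA genes lie below it, and XTH4, XTH9 and XTH15 lie far above it.

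Of the 10 tested transcription factors of the embryo programme 2 were higher (20%) and 3 lower (30%), with a median of 0.03. Over all genes these shares were 19.5% and 18.4%. FUS3 (AT3G26790), a B3 factor that drives maturation and ABA build-up in the embryo, stood at 23.2, 23.4 and 21.9 CPM in odr1-2 in water and at 2.38, 1.66 and 1.39 CPM in Col-0 in mannitol. The groups were far apart, a log2 fold change of 3.66 ± 0.18 or 12.7-fold. FUS3 was at 1.38 CPM in Col-0 in water and 25.2 CPM in odr1-2 in mannitol, so its level was similar within each genotype in both media. BZIP67, a bZIP factor of seed maturation, had 1.58 against 0.380 CPM (2.02 ± 0.52). HSFA9, a heat shock factor of maturing seeds, was lower with 3.79 against 6.99 CPM (-0.90 ± 0.20), and it shares annotated sequence with U3D. The chromatin genes PKL and VAL2, which silence the embryo programme, were not called (0.02 ± 0.05 and 0.08 ± 0.07).

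Of 10 tested GA synthesis genes 2 were higher, 3 lower and 5 not called (median 0.03), shares near those over all genes for the higher calls (19.5%) and above them for the lower (18.4%). GA3OX1 (AT1G15550) and GA3OX2 (AT1G80340) encode the enzymes that make active GA. GA3OX1 stood at 61.7, 58.8 and 60.6 CPM in odr1-2 in water and at 9.04, 5.84 and 10.4 CPM in Col-0 in mannitol (2.84 ± 0.11, 7.16-fold). GA3OX2 stood at 69.8, 72.3 and 77.0 CPM against 14.5, 10.6 and 15.7 CPM (2.43 ± 0.09). Both had intermediate means in the other groups, 36.2 and 49.8 CPM in Col-0 in water and 23.4 and 33.2 CPM in odr1-2 in mannitol.

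The 3 lower genes encode 20-oxidases, which supply the substrate of that step. GA20OX2 (AT5G51810) stood at 4.48, 4.49 and 3.34 CPM against 22.5, 16.2 and 21.4 CPM (-2.30 ± 0.16). GA20OX1 and GA20OX3, the other lower members, were chosen after their values were seen and had 2.05 against 6.06 CPM (-1.60 ± 0.26) and 108 against 203 CPM (-0.91 ± 0.05). The early enzyme gene KO was not called, with 215 against 214 CPM (interval -0.09 to 0.10). KAO2, the next oxidase, was not called either (-0.14 ± 0.06) and was called without odr1-2 water replicate 2 (-0.20) or Col-0 mannitol replicate 2 (-0.17). The 1 tested deactivation gene, GA2OX2, was not called (0.27 ± 0.14).

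All 8 tested GA signalling genes differed, 5 higher and 3 lower (median 0.30). The DELLA repressor genes RGA, with 241 against 136 CPM (0.83 ± 0.05; 172 CPM in Col-0 in water and 233 CPM in odr1-2 in mannitol), and RGL1, with 8.11 against 2.45 CPM (1.72 ± 0.22), were higher. RGL2, the main DELLA repressor of germination and chosen after its values were seen, was higher by less (0.19 ± 0.04). The GA receptor gene GID1A was lower, with 46.1 against 83.5 CPM (-0.85 ± 0.07), and followed the medium, at 47.0 CPM in Col-0 in water and 85.6 CPM in odr1-2 in mannitol. SCL3, a GRAS protein that opposes DELLA repression, was among the 10 largest falls at a mean of 10 CPM or more without overlap, with 11.6 against 63.0 CPM (-2.43 ± 0.10).

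Cell wall loosening genes were mostly higher. Of 24 tested genes 18 were higher, 13 of them at least 2-fold, and 2 were lower, with a median log2 fold change of 1.04. The list held 0.573% ± 0.00566 of counts in odr1-2 in water and 0.356% ± 0.00100 in Col-0 in mannitol, against 0.530% in Col-0 in water and 0.391% in odr1-2 in mannitol. XTH enzymes cut and rejoin xyloglucan in growing walls. XTH15 (AT4G14130) stood at 117, 126 and 120 CPM against 6.28, 5.06 and 9.03 CPM (4.15 ± 0.10, 17.8-fold), with AT4G14120 overlapping it. XTH9 stood at 69.2, 68.2 and 68.5 CPM against 3.14, 4.27 and 3.65 CPM (4.21 ± 0.12), and XTH4 at 11.6 against 0.544 CPM (4.41 ± 0.28). EXO, a protein of brassinosteroid-promoted growth, had 69.8 against 4.18 CPM (4.06 ± 0.12). XTH4, XTH9, XTH15 and EXO were at 12.6, 73.6, 125 and 82.2 CPM in Col-0 in water and at 0.427, 6.45, 2.34 and 1.40 CPM in odr1-2 in mannitol, so their levels were high in both water groups. EXPA8 was not called (-0.02 ± 0.05), and EXPA15, chosen after its values were seen, was lower with 88.5 against 200 CPM (-1.18 ± 0.05).

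Of 9 tested aquaporin genes 5 were higher (55.6%) and 1 lower (11.1%), with a median of 0.49. Over all genes these shares were 19.5% and 18.4%. PIP2;7, a plasma membrane water channel, stood at 260, 265 and 271 CPM against 128, 137 and 121 CPM (1.04 ± 0.05). PIP1;2 was not called (0.05 ± 0.05). Of 23 genes of DNA replication and the cell cycle 14 were higher and 2 lower (median 0.78). MCM6, of the replicative helicase, had 12.6 against 5.35 CPM (1.23 ± 0.16), and ORC2, of the origin recognition complex, 2.77 against 1.08 CPM (1.35 ± 0.36). CYCD3;2 and RNR2A were not called (0.13 ± 0.08 and 0.05 ± 0.06).

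Markers of endosperm, embryo epidermis and root tip were mostly higher, those of seed coat were not called, and the 1 tested leaf marker was lower. The part of seed tissues in the differences was not tested. Of 6 endosperm markers 5 were tested, 4 were higher and none was lower. EXPA2 (AT5G05290), an expansin of the endosperm at germination, stood at 1244, 1268 and 1318 CPM against 591, 600 and 616 CPM (1.08 ± 0.04). The mannanase gene MAN7 had 418 against 202 CPM (1.05 ± 0.05; AT5G66470 overlaps it), and the peroxidase gene AT2G22420 had 52.2 CPM in odr1-2 in water and was 3.07-fold higher (1.62 ± 0.09). ICE1 was not called (-0.09 ± 0.05), and ZOU was at 0 in all 6 libraries. Endosperm markers held between 1.16% and 1.298% of counts in odr1-2 in water and between 0.423% and 0.699% in Col-0 in mannitol. EPR1 (AT2G27380), a proline-rich protein chosen after its values were seen, made up most of that share, with 10807, 9620 and 10280 CPM against 5719, 3222 and 6004 CPM (1.04 ± 0.20). EXPA2, MAN7 and EPR1 had means of 620, 143 and 3779 CPM in Col-0 in water and 995, 415 and 12721 CPM in odr1-2 in mannitol.

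All 3 embryo epidermis markers were higher and held 0.0490% to 0.04997% of counts in odr1-2 in water and 0.0347% to 0.0367% in Col-0 in mannitol. They were PDF1 with 117 against 30.4 CPM (1.94 ± 0.07), ATML1 (0.33 ± 0.06) and PDF2 (0.14 ± 0.05). The PDF2 call was lost without odr1-2 water replicate 1 (0.12). All 3 tested root tip markers were higher (0.00651% to 0.00691% against 0.00441% to 0.00564% of counts, WOX5 being at or near 0), with PLT1 at 11.5 against 6.66 CPM (0.79 ± 0.16). The calls of PLT2 (0.65 ± 0.23) and SCR (0.26 ± 0.08) were each lost without some library, PLT2 without Col-0 mannitol replicate 1 (0.48) and SCR without odr1-2 water replicate 2 (0.22) or Col-0 mannitol replicate 2 (0.14). None of the 4 tested seed coat markers was called, and the list held 0.00232% to 0.00252% against 0.00232% to 0.00258% of counts, with BAN at 0 and TT8 near 0. The 1 tested leaf and seedling marker, RBCS1A, was lower with 367 against 511 CPM (-0.48 ± 0.04) and set that list's range of 0.0366% to 0.0377% against 0.0498% to 0.0523% of counts, while LHCB1.1 and LHCB1.2 were near 0.

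The circadian clock runs on a loop in which morning factors repress evening genes. Of 11 morning genes 8 were higher and 1 lower (median 0.84). Of 12 evening genes none was higher and 10 were lower (median -0.50). Both counts were the same without any 1 library. CCA1 (AT2G46830), a MYB-type morning repressor, stood at 65.2, 67.1 and 68.7 CPM against 10.7, 7.50 and 9.12 CPM (2.88 ± 0.10, 7.37-fold). LHY (AT1G01060), its partner, stood at 90.2, 86.5 and 79.5 CPM against 19.8, 21.4 and 18.1 CPM (2.11 ± 0.08). LNK1, a coactivator of the morning loop, had 74.3 against 28.4 CPM (1.38 ± 0.08; AT5G64160 overlaps it). CCA1 and LHY had means of 15.2 and 32.3 CPM in Col-0 in water and 79.4 and 86.5 CPM in odr1-2 in mannitol, high in both odr1-2 groups.

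BOA (AT5G59570), a MYB-like evening factor, stood at 37.9, 37.5 and 44.9 CPM against 89.0, 96.3 and 87.6 CPM (-1.18 ± 0.07). PRR5 had 1.37 against 4.31 CPM (-1.62 ± 0.30) and the blue light receptor gene FKF1 4.48 against 10.5 CPM (-1.21 ± 0.18; MAP70-1 overlaps it). GI, an evening regulator of flowering time and the clock, was not called (0.17 ± 0.10). RVE8 and RVE4, MYB-like activators of evening genes, were not called (-0.07 ± 0.09 and -0.14 ± 0.09). RVE8 and RVE4 were at 16.9 and 16.8 CPM in Col-0 in water and at 60.4 and 59.7 CPM in odr1-2 in mannitol. The labels do not give the time of day of sampling.

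**Figure D4:**
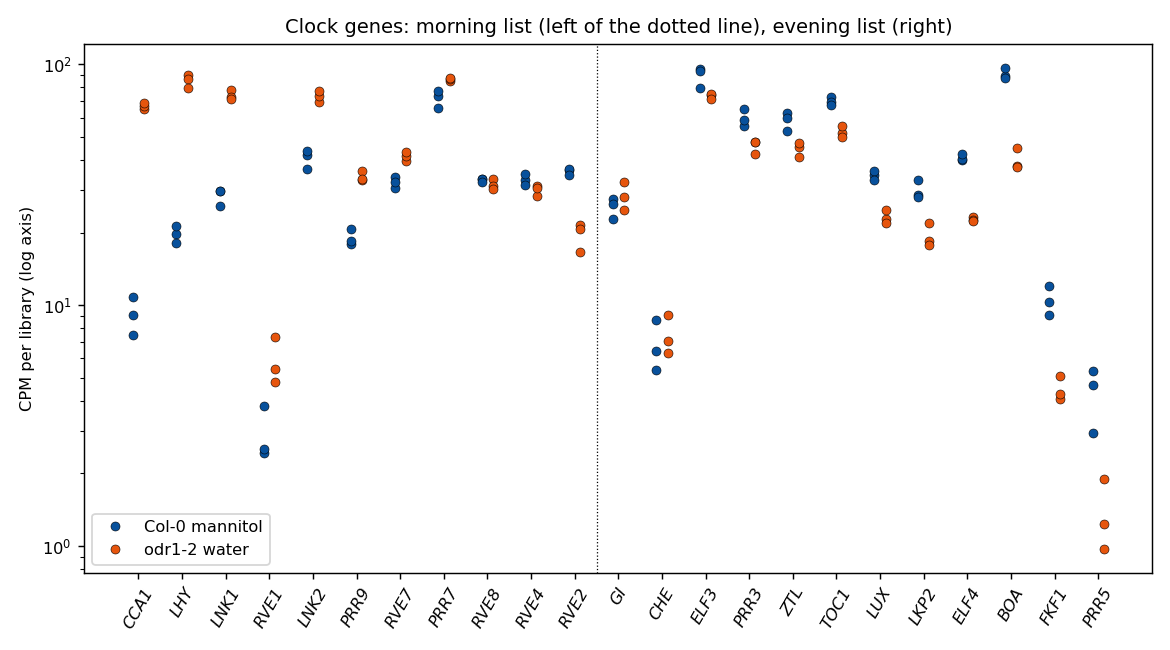
CPM in each library (log axis) of the morning clock genes (left of the dotted line) and the evening clock genes (right), with Col-0 mannitol in blue and odr1-2 water in orange, 3 libraries each. CCA1, LHY and LNK1 lie higher in odr1-2 water, and BOA, FKF1 and PRR5 lie lower.

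Counts of chloroplast-encoded genes were lower. The libraries were made from mRNA captured on poly-T beads, so these counts cover only chloroplast RNA caught that way. Of 42 tested chloroplast-encoded genes 40 were lower and none was higher, with a median log2 fold change of -2.31. These genes have low counts, and a gene can pass a filter through the group where it is higher. With no filter 105 were tested, of which 50 were lower and none was higher. A stricter filter left 5 to test, all of them lower, which says nothing of the genes it removed. They held 0.00691% of counts in odr1-2 in water and 0.0225% in Col-0 in mannitol, against 0.0109% in Col-0 in water and 0.0160% in odr1-2 in mannitol. ATCG00340 stood at 1.07, 0.465 and 0.799 CPM against 11.1, 9.07 and 12.2 CPM (-3.81 ± 0.26), and ATCG00350 at 1.11 against 12.4 CPM (-3.47 ± 0.25). Of 8 mitochondrion-encoded genes 1 was higher, 3 were lower and 4 were not called, with a median near 0. The higher call, ATMG01380, was lost without Col-0 mannitol replicate 1 (0.77), and 2 were higher without Col-0 mannitol replicate 2. Nuclear ribosomal protein genes were picked by product name alone, so members outside the cytosolic ribosome may be among them. Of the 118 tested 7 were higher and 30 lower, with a median of -0.07 and none at least 2-fold. These counts depended on single libraries, with 4 higher and 48 lower without Col-0 mannitol replicate 1 and 12 higher and 16 lower without Col-0 mannitol replicate 2. The higher count was also 4 without odr1-2 water replicate 2 or Col-0 mannitol replicate 3.

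The heat shock and jasmonate lists each held both higher and lower genes. Of 15 heat shock protein genes 4 were higher (26.7%) and 5 lower (33.3%), with a median of -0.37. HSP17.6A was among the lower with 22.6 against 38.1 CPM (-0.76 ± 0.09). Of 17 heat shock factor genes 7 were higher (41.2%) and 5 lower (29.4%). HSFB1 was 2.05-fold higher (1.04 ± 0.12), and HSFA7B was not called with 50.7 against 50.8 CPM. In the jasmonate list 3 of 15 were higher and 3 lower, close to the shares over all genes (19.5% and 18.4%), and the higher count was 1 without odr1-2 water replicate 2. The lower genes were AOS with 0.824 against 6.42 CPM (-2.89 ± 0.31), OPR3 with 2.81 against 8.84 CPM (-1.64 ± 0.21) and AOC4 with 5.63 against 11.2 CPM (1.99-fold).

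Among 15 antioxidant genes 4 were higher (26.7%) and 2 lower (13.3%), against 19.5% and 18.4% over all genes. The lower count was 1 without odr1-2 water replicate 1 or Col-0 mannitol replicate 3. The peroxidase gene APX1 was 2.82-fold higher, with 48.9, 52.2 and 48.3 CPM in odr1-2 in water, and the catalase gene CAT3 259 against 539 CPM (-1.06 ± 0.05). PER1, a seed peroxiredoxin tied to dormancy, was not called, with 674 against 686 CPM (interval -0.11 to 0.06), although it stood at 206 CPM in Col-0 in water and 1331 CPM in odr1-2 in mannitol. Indolic glucosinolate genes were higher in 5 (41.7%) and lower in 3 (25%) of 12 cases. The ethylene synthesis list had none higher and 1 lower (16.7%) of 6. That list had 1 higher without odr1-2 water replicate 2, Col-0 mannitol replicate 1 or Col-0 mannitol replicate 3. Of the 2 tested aliphatic glucosinolate genes SOT18 was higher (0.77 ± 0.23) and IPMI2 lower (-1.10 ± 0.39). The SOT18 call was lost without Col-0 mannitol replicate 1 (0.53), and the IPMI2 call without odr1-2 water replicate 2 or Col-0 mannitol replicate 3 (both -0.84). Nuclear photosynthesis genes were higher in 8 (42.1%) and lower in 3 (15.8%) of 19 cases (median 0.00).

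The largest differences at a mean of 10 CPM or more included genes whose level followed the genotype in all 4 groups. AT2G11410 had 939 counts over the 3 odr1-2 water libraries and 0 in Col-0 in mannitol, at least 284-fold higher when set against 3 counts over the group. SADHU8-1, named for a retroelement family, had 725 counts against 0, at least 219-fold higher. Both were at or near 0 in Col-0 in water (0 and 0.0273 CPM) and at 25.0 and 24.0 CPM in odr1-2 in mannitol. IRT3, a metal transporter, stood at 18.4, 21.5 and 19.4 CPM against 0.381, 0.349 and 0.0868 CPM (6.15 ± 0.28), with 0.164 CPM in Col-0 in water and 11.4 CPM in odr1-2 in mannitol. AT1G64795 had 78.7 against 2.42 CPM (5.02 ± 0.11) and overlaps ILA.

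In the other direction MRD1 (AT1G53480) stood at 0.682, 0.852 and 0.436 CPM against 52.4, 50.2 and 53.4 CPM, 78.7-fold lower (-6.30 ± 0.17). It was at 54.4 CPM in Col-0 in water and 0.913 CPM in odr1-2 in mannitol, low in both odr1-2 groups, and it overlaps HEI10. KUOX1, a karrikin-induced oxidoreductase, had 3.86 against 19.1 CPM (-2.30 ± 0.17). The zinc finger gene ATCTH had 2.24 against 14.0 CPM (-2.66 ± 0.21). AT1G62420, of the DUF506 family, had 18.8 against 95.2 CPM (-2.34 ± 0.09), and AT1G17830, of the DUF789 family, 2.39 against 17.1 CPM (-2.84 ± 0.20). In Col-0 in water ATCTH, AT1G62420 and AT1G17830 were at 2.91, 31.9 and 9.51 CPM, and in odr1-2 in mannitol at 8.10, 45.7 and 3.75 CPM. By mean, each of these genes was higher in mannitol than in water within both genotypes. Each was also lower in odr1-2 than in Col-0 within both media. KUOX1 was at 13.9 CPM in Col-0 in water.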

How the data were processed

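The deposited table of counts holds raw reads per gene for 36795 loci, per the file headers and the labels, and a second deposited table holds TPM. Per the submitters' processing notes, HISAT2 2.2.1, HTSeq 2.0.5 and fastp 0.23.1 were used with build TAIR10, and settings for strand and multiply mapped reads are not given in the sources used here. Per the labels' protocols, mRNA was captured on poly-T beads. Gene names, overlaps and the 300-base windows came from RefSeq TAIR10.1 by locus ID (36632 loci matched, 163 did not).

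The ratio of counts to TPM lay within 1% of proportionality to exon length for 99.97% of 7363 genes. Counts were tested with edgeR 4.0.16 under R 4.3.3 (robust quasi-likelihood, two-sided, TMM scaling, filterByExpr with a minimum count of 10 and total of 15), with 12 libraries, 4 group means and Benjamini-Hochberg adjustment over the 18413 genes tested. The SE is the absolute log2 fold change divided by the square root of F. Common biological variation was 5.80%, and replicates differed beyond counting error (chi-square per degree of freedom 2.26 to 5.75). The largest values, 5.75 and 4.48, were those of the pairs with Col-0 mannitol replicate 2, and other pairs reached at most 2.81. The fit was checked on simulated counts. Reads carry no molecular tags, so bounds cover counting error only.

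Named genes are 21 given whatever their result, the 10 largest differences in each direction at 10 CPM or more without overlap between libraries, up to 3 called members of each list at 1 CPM or more, and up to 2 uncalled members with the narrowest intervals. The members and lists were chosen with earlier results of these data known. Alternatives were DESeq2 1.42.0, limma 3.58.1 on log2 of TPM plus 1, other scalings, filters and thresholds, a replicate block, the 2 groups alone, and leaving out each library.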

Additional observations from a re-analysis of the deposited data

How the results depend on the processing

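The number of genes called stayed within 1.5 times the reported 6987 in every alternative run (5198 at an adjusted p of 0.01 to 7101 with a replicate block). Leaving out 1 library gave 6126 to 6611 calls, 3190 to 3425 of them higher and 2911 to 3186 lower, with 1303 to 1338 at least 2-fold. The at least 2-fold count, 1303, was 569 with a stricter filter on low counts, which tested 14003 genes, and 832 with limma-trend on log2 of TPM plus 1, which shrinks low levels. Deviations of same-numbered libraries of the 2 groups correlated at 0.0463, 0.0362 and 0.0159, and those of other pairs at -0.0433 to 0.0109. All these correlations were small, and they do not settle whether replicates were paired by number. The replicate block gave 7101 calls, 3639 higher and 3462 lower, with 1297 at least 2-fold. Of 2716 gene and setting pairs for 172 named genes 2683 kept their direction and side of the threshold, 26 lost the call, 7 gained it and none changed direction. Low genes have wide errors, and the filter set how many chloroplast-encoded genes were tested. With no filter 50 of 105 were lower and none was higher, and the stricter filter left 5, all lower.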
